A study of Mus musculus with 2 samples.

Results

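Smooth muscle cells with Myh11 and low Igfbp2 were examined in a culture of the ventral heart base of newborn mice. They are the ventral cells with at least 3 UMIs of Myh11, the smooth muscle myosin heavy chain, and fewer than 20 UMIs of Igfbp2, a secreted binding protein of insulin-like growth factors, per 10000 UMIs of the cell. A UMI is a counted RNA molecule, and a cell is a barcode with at least 8000 UMIs of which at most 20% came from mitochondrial genes. The rule found 413 members among 10649 ventral cells, or 3.88% (95% Clopper-Pearson interval 3.52 to 4.26), and among 19575 cells of both libraries. The members were chosen by their Myh11 and Igfbp2 values, so these values are a description.

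The ventral pool held outflow tract base with proximal aorta and pulmonary artery. The dorsal pool, which serves as a comparison, held pulmonary veins, cardiac ganglia and sinoatrial node. Both pools held tissue of 15 hearts taken from C57Bl6 mice of both sexes at 3 days of age, and both were cultured for 5 days before 10x Genomics 3' single-cell RNA sequencing. The labels give no genetic change and no treatment for either pool. There was 1 library per domain, hearts cannot be told apart within a pool, and domain and library cannot be told apart. No test between groups was therefore made, and every interval covers counting error only.

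Vascular smooth muscle cells of the great arteries contract through actin and myosin filaments and deposit elastin, which lets the arterial wall recoil. The transcription factors Myocardin and serum response factor switch on their contractile genes, in part through a promoter element called the CArG box. In culture such cells are known to shift from a contractile towards a matrix-producing state. Pericytes, the mural cells of small vessels, share part of the same gene set, and Notch3 is a receptor found in both.

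The ventral matrix held 264822916 UMIs and the dorsal matrix 246920028. The members held 9341290 UMIs. Their medians were 19000 UMIs, 4010 detected genes and a mitochondrial share of 4.29%. Of all cell barcodes, 22 occurred in both libraries, and 1 member had the barcode of a dorsal cell. Scrublet, which scores barcodes for resemblance to simulated doublets, marked 45 of the 413 members (10.9%) and 4.87% of the other ventral cells. Free RNA, read from barcodes with 100 or fewer UMIs, held 5277 CPM of Acta2 in the ventral library. CPM is the number of UMIs of a gene per 1000000 UMIs of the summed cells. The 154 ventral cells with endothelial Pecam1 or Cdh5 UMIs (3 or more in sum; median 19927 UMIs) had an Acta2 UMI in 96.8% of cells but a Myh11 UMI in 3.90%. These endothelial cells had 1578 CPM of Acta2 in sum, so the presence of Acta2 UMIs in a ventral cell was read as background.

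Members had between 3 and 54 Myh11 UMIs, with a median of 6 and quartiles of 4 and 11. Their Igfbp2 had a median of 2.81 UMIs per 10000 and an upper quartile of 10.7, and 116 members had none. The plot of Igfbp2 against Myh11 shows no gap at either limit of the rule.

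**Figure D1:**
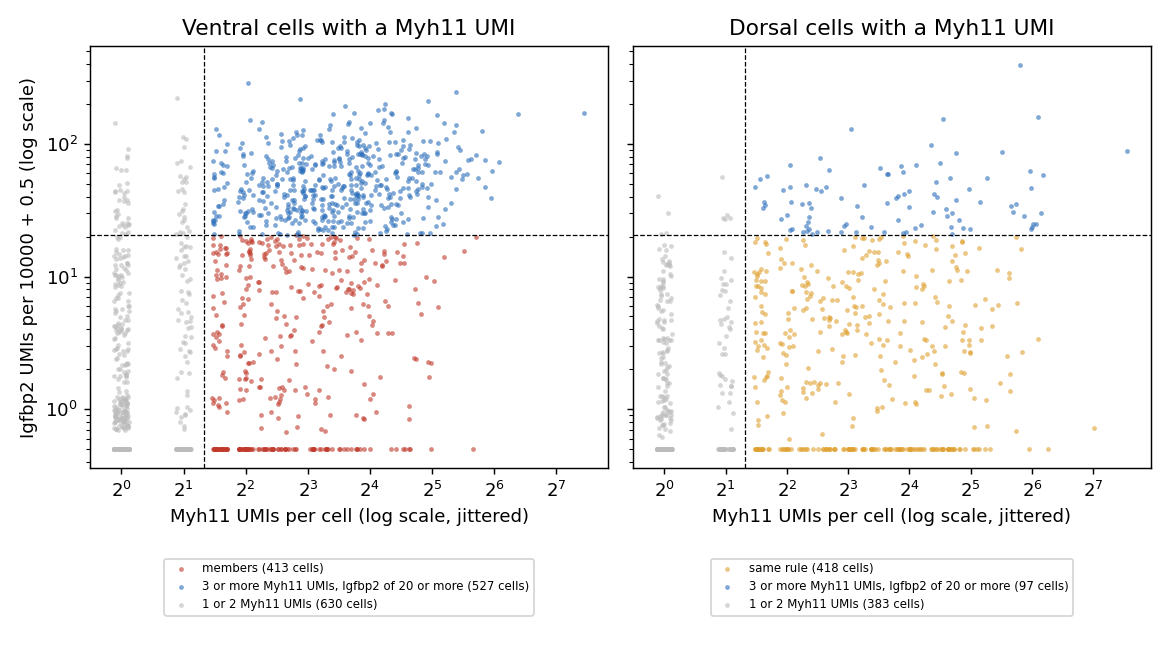
Igfbp2 UMIs per 10000 UMIs (with 0.5 added, log scale) against Myh11 UMIs per cell (log scale) in ventral cells, left, and dorsal cells, right, that had at least 1 Myh11 UMI. Each point is a cell and the dashed lines are the limits of the rule. Ventral cells run across the Igfbp2 limit without a gap. Among cells with 3 or more Myh11 UMIs, 413 ventral cells lie below it and 527 above it, and 418 dorsal cells lie below it and 97 above it.

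Across the Igfbp2 limit of the rule, Sost and Acan were at similar levels on both sides and Cdkn1c and Des were not. The 77 members with 3 Myh11 UMIs had 15812 CPM of Acta2 and 487 CPM of Cnn1, and the 113 ventral cells with 2 Myh11 UMIs and equally low Igfbp2 had 13286 CPM and 318 CPM. Cdkn1c was similar across this Myh11 limit, at 239 CPM in the former and 252 CPM in the latter, and Des was at 16.1 and 35.1 CPM. The 53 members with an Igfbp2 of 15 to 20 per 10000 had 142 CPM of Sost and 239 CPM of Acan, and the 47 ventral Myh11 cells at 20 to 25 had 140 CPM and 225 CPM. Between the same 2 sets, Cdkn1c was at 198 CPM inside the limit and at 40.5 CPM outside it, and Des at 168 CPM inside and 20.7 CPM outside. Des was uneven among the members, at 60.8 CPM with no Igfbp2, 63.8 CPM up to 5 per 10000, 39.8 CPM at 5 to 10 and 69.7 CPM at 10 to 15. Cdkn1c was uneven as well, at 453, 262, 113 and 313 CPM in the same order, and the highest member had 9492 CPM. Further above the limit, Cdkn1c was at 47.0 CPM at 25 to 40 and 33.6 CPM at 40 or more. When every cell was thinned to 8000 UMIs, 204 of the 413 members still met the rule.

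The label was checked against 4 markers, of which Acta2, Tagln and Cnn1 had no part in the rule. Acta2, the smooth muscle alpha-actin on chromosome 19, was at 17455 CPM in members (95% Poisson interval 17371 to 17540) and at 5364 CPM in the other 10236 ventral cells (5355 to 5373). Every member carried Acta2 UMIs, with a lowest value of 506 CPM, a median of 17514 and a highest of 54157 CPM in a cell. Of 9709 ventral cells with fewer than 3 Myh11 UMIs, only 50 had no Acta2 UMI, so presence alone does not set members apart. The lowest value in a member lies below the 1578 CPM of the ventral endothelial cells. Tagln, an actin-binding protein of smooth muscle, was at 7966 CPM in members and 2769.8 CPM in the other ventral cells. Cnn1, which encodes calponin and inhibits myosin ATPase, was at 644 CPM in members (628 to 661) and 109 CPM in the other ventral cells. It was found in 95.6% of members and 36.0% of other ventral cells. After thinning to 8000 UMIs it was found in 91.5% of members and 24.98% of other ventral cells. The free RNA held 2296 CPM of Tagln and 149 CPM of Cnn1, so all 3 markers stood above it in members, and 18 members had no Cnn1 UMI. The marker levels did not go against the label.

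The first comparison set the members against all other ventral cells, most of which had fewer than 3 Myh11 UMIs. Members carried more of most of the contractile list and of some regulators of contraction, and less of most mesothelial and macrophage genes and of some fibroblast genes. Among 5540 genes with at least 20 CPM on either side, 121 (2.18%) were at least 2-fold higher in members and 128 (2.31%) at least 2-fold lower, 4.49% in all. Of 22 genes on the contractile list, 16 were at least 2-fold higher and 0 lower, and the list's median log2 ratio was 1.41, against -0.06 over all measured genes. Without the 93 members of the sub-cluster 3 described further on, Actn1, Mylk, Synpo2 and Tpm1 were under 2-fold, at 0.90 to 0.99, and the median was 1.22. Cells with 3 or more Myh11 UMIs and high Igfbp2 are part of these other ventral cells.

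Among filament proteins, Actg2, the gamma-actin of visceral and some vascular smooth muscle, was at 496 CPM in members (482 to 510.4) and 57.3 CPM in other ventral cells (56.3 to 58.2), a log2 ratio of 3.11 (3.07 to 3.16). The Actg2 UMIs were unevenly spread, since 139 members had none and the highest had 7378 CPM. The coding sequences of the muscle actins are nearly the same, so the split between Actg2 and Acta2 rests on their 3' ends. Myl9, the regulatory light chain of smooth muscle myosin, was at 2349.7 CPM in members and 636 CPM in other ventral cells, a log2 ratio of 1.89 (1.87 to 1.91). Mylk, the kinase that phosphorylates this light chain, had a log2 ratio of 1.85, which was 0.97 without sub-cluster 3. Lmod1, which nucleates actin filaments, had a log2 ratio of 1.98. Des, the muscle intermediate filament desmin, was at 72.4 CPM in members and 12.4 CPM in other ventral cells, a log2 ratio of 2.55 that was 1.70 without sub-cluster 3, and 329 of the 413 members had no Des UMI.

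**Figure D2:**
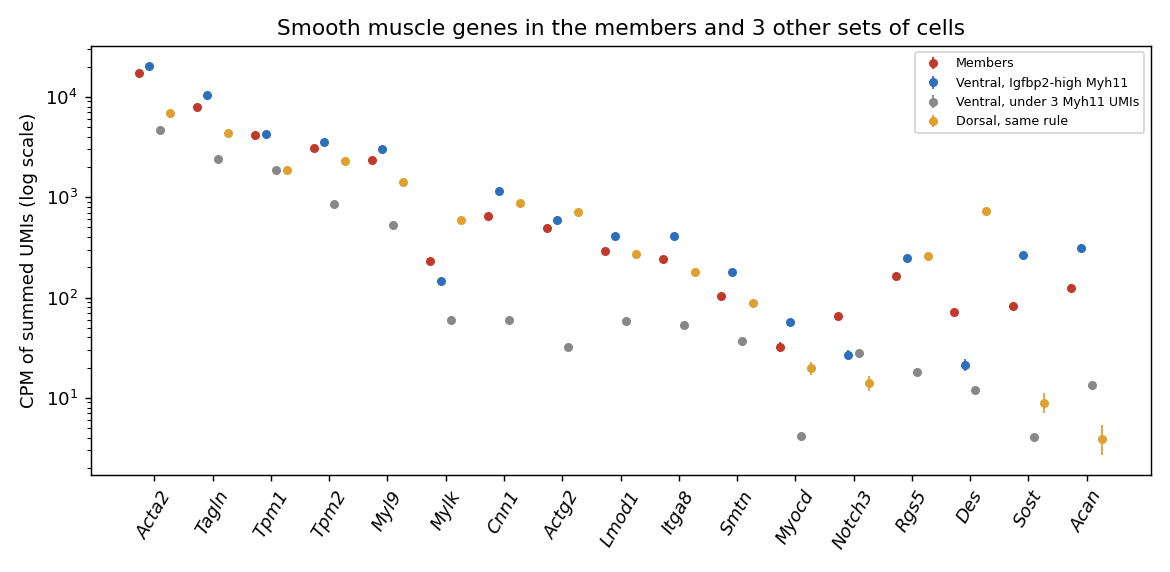
Level of 17 genes in CPM of the summed UMIs (log scale) in members, in ventral Myh11 cells with high Igfbp2, in ventral cells with fewer than 3 Myh11 UMIs and in dorsal cells that met the same rule. Bars are 95% Poisson intervals and often lie within the point. Members sit close to the Igfbp2-high cells for most filament genes and below them for Sost and Acan, and their values for Mylk, Notch3 and Des include sub-cluster 3.

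Some regulators of contraction and of muscle transcription were also higher in members. Of 16 genes for contraction signalling and channels, 6 were at least 2-fold higher and 0 lower, and 1 of the 6, Pde5a, was at 0.64 without sub-cluster 3. Rgs5, which shortens signalling by G protein-coupled receptors, was at 163 CPM in members and 28.6 CPM in other ventral cells. Its UMIs were unevenly spread, since 220 of the 413 members had none and the highest had 7973 CPM. Kcnmb1, the beta subunit of the large-conductance potassium channel that relaxes smooth muscle, was at 51.7 CPM in members and 10.8 CPM in the others. Ppp1r14a, an inhibitor of myosin phosphatase, had a log2 ratio of 1.69, which was 1.05 without sub-cluster 3. Myocd, which encodes Myocardin, was at 32.0 CPM in members (28.5 to 35.8) and 6.54 CPM in other ventral cells (6.23 to 6.87). The 20 highest ratios also took in Aoc3, an amine oxidase of vascular smooth muscle, Adamts8, a metalloprotease, Mustn1, Bcam, Myom1, Cbr2, Fbxl22, Map3k7cl, Itga8 and Tspan2, at log2 ratios of 1.78 to 2.48. Without sub-cluster 3, Bcam was at 1.49, compared with 2.12, and Mustn1 at 109 CPM in members, compared with 176 CPM. Of 6 tested pericyte genes, Rgs5, Mcam, Cspg4 and Notch3 were at least 2-fold higher and 0 lower, and Notch3 was under 2-fold without sub-cluster 3. Of 13 genes on the smooth muscle transcription list, Myocd was at least 2-fold higher and Tcf21, a factor of epicardium-derived fibroblasts, at least 2-fold lower.

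A CArG box was searched by script in the window from 250 bases before to 50 bases after the gene start, on both strands, in RefSeq promoters of GRCm38.p6. The box was counted only as an exact match to CCWWWWWWGG, where W is A or T. It was present in 3 of the 22 contractile list genes that had a window, and in 1.81% of the windows of 27025 genes. Tagln, Actg2, Itga7 and Myh11 were not searched here. The 3 genes were Myl9, Ldb3, a Z-disc protein, and Vcl, a focal adhesion protein. Their boxes are shown because they are the list's matches in this window, with the box in capitals and 10 bases on either side.

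Myl9: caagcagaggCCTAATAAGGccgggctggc
Ldb3: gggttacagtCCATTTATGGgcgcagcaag
Vcl: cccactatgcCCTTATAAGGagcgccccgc

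The stretches lie at chr2:156775293-156775322 on the plus strand, chr14:34588697-34588726 on the minus strand and chr14:20929161-20929190 on the plus strand, each upstream of the gene start. Myl9 and Ldb3 were at least 2-fold higher in members than in other ventral cells. Vcl was not, at 405 CPM in members and 242 CPM in the others. Acta2 and Cnn1, whose windows hold no exact match, had log2 ratios of 1.70 and 2.57. Boxes with a mismatch and boxes outside the window were not searched, so a window without a match does not show that a gene lacks a box.

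Several secreted and matrix proteins were also higher in members as a whole. Sost, an inhibitor of Wnt signalling, was at 81.7 CPM in members and 15.8 CPM in other ventral cells, a log2 ratio of 2.37 (2.25 to 2.48). Acan, the proteoglycan aggrecan, was at 125 CPM in members and 26.6 CPM in the others. Against ventral cells with fewer than 3 Myh11 UMIs, a reference chosen after seeing the data, the log2 ratios were larger, at 4.32 for Sost and 3.22 for Acan, and 140 genes were higher and 142 lower. Eln, the elastin gene, was at 13694 CPM in members and 7680 CPM in other ventral cells. Of 16 elastic fibre genes Fbln5 was at least 2-fold higher and Fbln1 and Efemp1 at least 2-fold lower. These levels were uneven, since 256 of the 413 members had no Sost UMI and 198 no Acan UMI. From sub-cluster 3, which had the most Acta2, to sub-cluster 2, Sost ran from 0.606 to 260 CPM and Acan from 69.7 to 318 CPM. Eln ran from 3109 to 26234 CPM between the same sub-clusters.

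Growth factor genes differed in part. Tgfb3 and Tgfb2, ligands of the TGF-beta receptors, Ctgf, a target of that pathway, and Ltbp1, which binds latent TGF-beta, were at least 2-fold higher among 17 genes of the pathway, and 0 were lower. Tgfb3 was at 169 CPM in members and 57.0 CPM in the other ventral cells. Without sub-cluster 3 Tgfb3 was at 104 CPM in members, a log2 ratio of 0.87, and Ctgf had a log2 ratio of 0.94, so both were under 2-fold. Notch3 was at 65.3 CPM in members (60.2 to 70.7) and 27.7 CPM in other ventral cells (27.0 to 28.4), and was the 1 of 4 tested Notch genes past 2-fold. Without sub-cluster 3 it was at 39.3 CPM in members, a log2 ratio of 0.50, and none of the 4 was past 2-fold. None of the 17 tested collagens or 14 glycolysis genes was 2-fold apart, and the collagen median was -0.22.

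Genes that mark other cell types were among the lower ones. Of 7 mesothelial genes 6 were at least 2-fold lower, including Msln at 17.98 CPM in members and 126 CPM in the other ventral cells, a log2 ratio of -2.81 (-3.04 to -2.59). All 4 tested macrophage genes were lower, among them Lyz2 at 66.7 CPM in members and 287 CPM in the others. Of 14 fibroblast genes 6 were lower, and Dcn, the proteoglycan decorin, was at 411 CPM in members and 1322 CPM in the others. The 2 genes with the lowest ratios were Hp, the haemoglobin-binding protein haptoglobin, at a log2 ratio of -3.53 (-3.95 to -3.14), and Lgals3, the lectin galectin-3, at -2.97. The acute-phase gene Saa3 was at 130.4 CPM in members and 994 CPM in the others. Ezr, Serpina3n, Lcn2, Gas1, Pdpn and Gpm6b followed, at -2.32 to -1.84. With at least 1 Myh11 UMI in place of 3, Lgals3, Msln, Ezr, Lyz2, Gas1, Pdpn and Tcf21 were under 2-fold, at -0.91 to -0.39. Without the 53 members of the sub-cluster 5 described further on, the members' levels were 2.58 CPM for Msln, 19.4 CPM for Lyz2 and 29.95 CPM for Saa3. The summed level of 10 macrophage markers was 95.3 CPM in members and 420.4 CPM in the others, with 0 of the 10 at 0 UMIs in members. The summed level of 10 mesothelial markers was 72.6 CPM in members and 360 CPM in the others, with Muc16 at 0 UMIs in members. The part of such cells in these ratios was not tested.

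**Figure D3:**
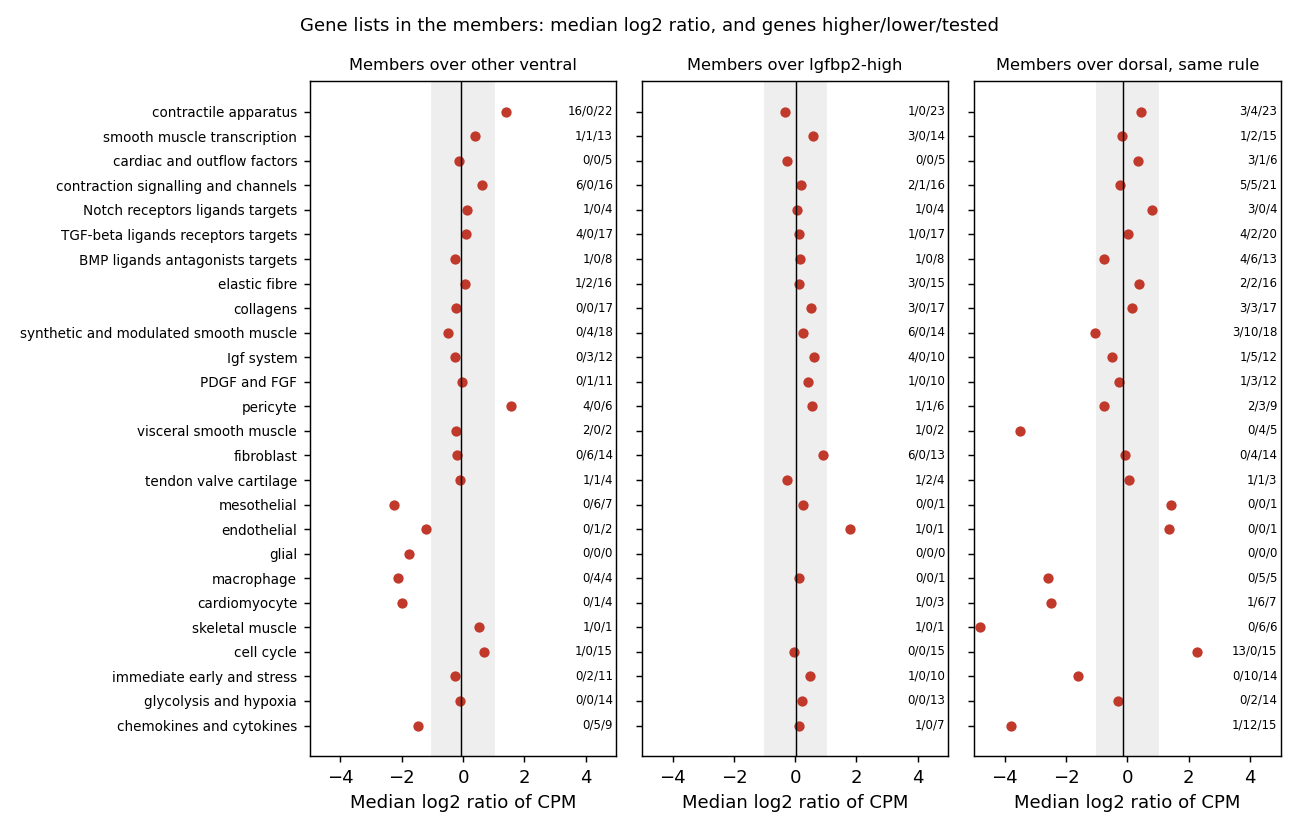
Median log2 ratio of 26 gene lists in members over other ventral cells, over ventral Igfbp2-high Myh11 cells and over dorsal cells under the same rule. The numbers at the right are genes at least 2-fold higher, at least 2-fold lower and tested, the black line is the median of all measured genes, the grey band spans -1 to 1, and lists with fewer than 5 measured genes have no point. The contractile list stands at 1.41 against other ventral cells and within the band in the other comparisons.

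The second comparison set the members against the 527 ventral Myh11 cells with 20 or more Igfbp2 UMIs per 10000, which had a median of 17539 UMIs. The contractile apparatus was nearly level between these sets. Members had more of some fibroblast genes and of the cell cycle inhibitor Cdkn1c, and less of a group of genes headed by Plb1, Wnt16 and Sost. Among 5393 genes, 153 (2.84%) were at least 2-fold higher and 65 (1.21%) at least 2-fold lower in members, 4.04% in all. The rule itself divided these cells by Igfbp2, so the direction of Igfbp2 is not a result.

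On the contractile list, 1 of 23 genes, Des, was at least 2-fold higher and 0 were lower, and Des was at 0.92 without sub-cluster 3. The list had a median log2 ratio of -0.32 against 0.04 over all measured genes. Acta2 was at 17455 CPM in members and 20479 CPM in Igfbp2-high cells, and Cnn1 at 644 CPM in members and 1159 CPM in Igfbp2-high cells. Myocd was at 32.0 CPM in members and 56.7 CPM in Igfbp2-high cells, a log2 ratio of -0.82 (-1.03 to -0.62). Cell for cell the sets overlapped, with Acta2 quartiles of 11948 and 24879 CPM in members and of 16603 and 25061 CPM in Igfbp2-high cells. Kcnmb1 was lower, at 51.7 CPM in members and 134 CPM in Igfbp2-high cells. Myh11, which the rule used, had a median of 6 UMIs in members and 11 in Igfbp2-high cells.

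The highest ratios belonged to Fst and Cdkn1c. Fst, the activin-binding protein follistatin, was at 82.5 CPM in members (76.8 to 88.6) and 9.66 CPM in Igfbp2-high cells (7.90 to 11.7), a log2 ratio of 3.10 (2.80 to 3.40). Cdkn1c, an imprinted inhibitor of cyclin-dependent kinases, was at 286 CPM in members (276 to 297) and 37.6 CPM in Igfbp2-high cells (34.1 to 41.5). Without sub-cluster 3 the log2 ratio of Cdkn1c was 1.73, against 2.93 with all members. Ventral cells with fewer than 3 Myh11 UMIs had 74.0 CPM of Fst and 158 CPM of Cdkn1c, above the Igfbp2-high cells for both. Fhl2, a LIM-domain cofactor, was at 355 CPM in members and 76.4 CPM in Igfbp2-high cells, a log2 ratio of 2.22 that was 1.45 without sub-cluster 3, and Bmp3, a ligand of the BMP family, at 63.1 CPM in members and 13.0 CPM in Igfbp2-high cells.

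Further genes had the same direction. The log2 ratios were 2.72 for G0s2, an inhibitor of triglyceride breakdown, 2.60 for Tmem37 (1.33 without sub-cluster 3), 2.17 for the interferon-induced Ifi27l2a (1.24 without sub-cluster 5), 2.10 for Fibin, 2.12 for the fibrillar collagen Col11a1, 2.12 for the ephrin receptor Epha3, 2.01 for the heparin-binding growth factor Ptn and 1.97 for Figf, the lymphatic growth factor VEGF-D. Of 13 fibroblast genes, 6 were at least 2-fold higher in members and 0 lower, among them Dcn at 411 CPM in members and 151 CPM in Igfbp2-high cells. Of 10 genes of the insulin-like growth factor system other than Igfbp2, 4 were higher, namely Igfbp3, Igfbp4, Igfbp5 and the protease Pappa, which cleaves Igfbp4. Pappa was at 0.92 without sub-cluster 3 and Igfbp4 at 0.86 without sub-cluster 5, both under 2-fold, and Igfbp5 at 1.48 without sub-cluster 5, compared with 2.11. Igfbp3 was at 193 CPM in members and 49.7 CPM in Igfbp2-high cells. Mgp, an inhibitor of calcification, was at 5527 CPM in members and 2446 CPM in Igfbp2-high cells. Notch3 was at 65.3 CPM in members and 26.7 CPM in Igfbp2-high cells, a log2 ratio of 1.29 that was 0.56 without sub-cluster 3.

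At the other end, the phospholipase gene Plb1 was at 36.6 CPM in members and 179 CPM in Igfbp2-high cells, a log2 ratio of -2.29 (-2.46 to -2.13). Wnt16, a secreted Wnt ligand, was at 11.5 CPM in members and 55.6 CPM in Igfbp2-high cells. Sost was at 81.7 CPM in members and 268 CPM in Igfbp2-high cells, and Acan at 125 CPM in members and 310 CPM in Igfbp2-high cells. Sost, with 2 or more UMIs, was present in 122 of 413 members (29.5%, interval 25.2 to 34.2) and 365 of 527 Igfbp2-high cells (69.3%, 65.1 to 73.2). Both sets stood above the ventral cells with fewer than 3 Myh11 UMIs, of which 1.70% had 2 or more Sost UMIs. Ndnf, Bex4, Tnnc1, Optc, Cbr2, Itga4, Ptprz1 and Cdo1 were also lower in members, at -2.24 to -1.39. Cdo1 was under 2-fold with at least 10 Myh11 UMIs, with an Igfbp2 limit of 40 and after thinning, at -0.93 to -0.82, and Ptprz1 after thinning, at -0.91. Eln had a log2 ratio of -0.68, and Fbln5, which helps elastic fibres assemble, was at 1229 CPM in members and 2455 CPM in Igfbp2-high cells. Of 15 tested elastic fibre genes, 3, Mfap5, Fbn2 and Fbln1, were at least 2-fold higher in members, and Fbln1 was at 0.72 without sub-cluster 5. Cycling cells, with 3 or more UMIs over 6 cell cycle genes, made up 20.1% of members (16.3 to 24.3) and 19.2% of Igfbp2-high cells (15.9 to 22.8), and 0 of 15 cell cycle genes were 2-fold apart.

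Within the members, Acta2 varied with a set of partner genes. Across the 413 members thinned to 8000 UMIs, the Spearman correlation with Acta2 was 0.79 for Myl9, 0.77 for Tpm2, a beta-tropomyosin, 0.69 for Tagln, 0.64 for Myl6, 0.63 for Tpm1 and 0.62 for the actin-severing protein Dstn, the highest of 2516 genes. Ppp1r14a, Csrp1, Actb and Tinagl1 completed the first 10, at 0.60, 0.57, 0.54 and 0.52. Cnn1 and Myh11 were lower, at 0.39 and 0.35, with Myh11 cut off below by the rule. The lowest were the translation-related Tpt1 at -0.54, Dcn at -0.50 and the matrix genes Col1a2 and Mgp, both at -0.45. These cells share a library, and thinning gives each the same total of UMIs, so the values are a description without a p-value. They were taken over all members together, and the sub-clusters described further on differed in some of these genes. Acta2 was at 28685 CPM in sub-cluster 3 and 10108 CPM in sub-cluster 5, Tagln at 12330 and 5317 CPM, and Dcn at 76.4 and 746 CPM. The part of such differences in the correlations was not tested.

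The members were not of 1 kind. Clustering on variable genes, without Myh11 and Igfbp2, gave 5 sub-clusters of 112, 97, 93, 58 and 53 cells. Their leading genes are a description, since the same genes made the clusters. Sub-clusters 2, 3 and 4 were recovered under another seed, with 97.9%, 100% and 94.8% of their cells again together, whereas sub-clusters 1 and 5 merged into 1 cluster. With Scrublet-marked members left out and with a larger set of variable genes, sub-clusters 2, 3 and 4 kept 92.3% to 100% of their cells together. Sub-clusters 1 and 5 again shared a cluster, with 53.6% of sub-cluster 1 in it with the larger set. With the larger set, the cluster that held sub-cluster 2 also took in other members, with 93 of its 145 cells from sub-cluster 2. At a resolution of 1.0, which gave 8 clusters, the shares were 43.8%, 91.8%, 71.0%, 100% and 92.5% of sub-clusters 1 to 5.

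Sub-cluster 3 had the most Acta2 and Mylk RNA and the least Eln. It had 28685 CPM of Acta2 (28427 to 28945), against 10108 to 18559 CPM in the other 4, and 725 CPM of Mylk, against 66.8 to 162 CPM. Cnn1 did not follow, at 574 CPM, within the 412 to 926 CPM of the other sub-clusters. Eln was at 3109 CPM (3024 to 3195), against 9921 to 26234 CPM, Mgp at 717 CPM, against 5705 to 7886 CPM, and the chemokine Cxcl12 at 26.1 CPM, against 553 to 1649 CPM. Of its 93 cells, 58 had no Igfbp2 UMI.

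The genes that led sub-cluster 3 included Higd1b, a mitochondrial protein marking pericytes, and Casq2, the calcium store protein calsequestrin, with the olfactory receptor genes Olfr558 and Olfr78. Higd1b was at 88.5 CPM (74.8 to 104) and at most 2.04 CPM in the other sub-clusters. Casq2 was at 148 CPM, Notch3 at 187 CPM (166 to 209) and Cdkn1c at 1037 CPM (989 to 1088), against at most 31.6, 54.5 and 170 CPM in the others. Tgfb3, the lysyl oxidase relative Loxl2 and the basement membrane collagen Col4a1 were also highest there, at 473, 669 and 1719 CPM. The pericyte list summed to 1098 CPM in sub-cluster 3 and 423 to 582 CPM elsewhere, but Rgs5 was at 132 CPM there and 64.7 to 213 CPM elsewhere. Abcc9 and Kcnj8, channel subunits of pericytes, were at 11.5 and 18.2 CPM, compared with 6.32 and 5.78 CPM in all members. In members without sub-cluster 3, Kcnj8 was at 3.12 CPM. Ndufa4l2, also on the pericyte list, was at 3.64 CPM there and at 10.6 CPM in all members. Rgs5 thus did not follow these pericyte genes, and the sub-cluster is named by its number.

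Cells with 2 or more Higd1b UMIs numbered 25 of 413 members (6.05%, interval 3.96 to 8.81), 24 of them in sub-cluster 3. They numbered 1 of 527 Igfbp2-high cells, 44 of 9709 ventral cells with fewer than 3 Myh11 UMIs (0.453%) and 4 of 418 dorsal cells under the rule (0.957%). Des with 2 or more UMIs was in 43 of the 93 cells of sub-cluster 3 (46.2%, 35.8 to 56.9) and in 1 of the 97 cells of sub-cluster 2.

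Sub-cluster 2 had levels of Sost and Acan close to those of the Igfbp2-high cells. It had 260 CPM of Sost, 318 CPM of Acan, 497 CPM of the secreted protein Nov and 26234 CPM of Eln (25984 to 26486), and Igfbp2-high cells had 268 CPM of Sost, 310 CPM of Acan and 21921 CPM of Eln. Its median Igfbp2 was 11.8 per 10000, and 53 of its 97 cells lay between 10 and 20. Fst was at 20.6 CPM and Cdkn1c at 33.1 CPM, compared with 9.66 and 37.6 CPM in the Igfbp2-high cells. Sub-cluster 1 was led by Igfbp3 at 436 CPM, by the microfibril protein Mfap5 at 364 CPM and by Fst at 175 CPM. Its cardiac muscle genes Myl7 and Actc1, at 106 and 95.1 CPM, came from 3.57% and 6.25% of its cells.

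**Figure D4:**
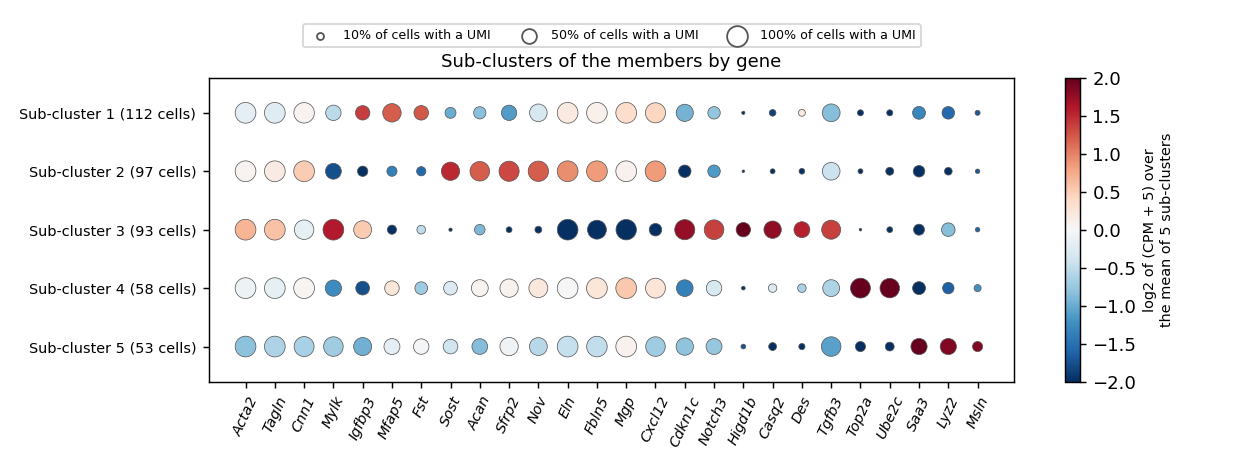
The 5 sub-clusters of members (rows) by 26 genes (columns). Circle area follows the share of cells with a UMI, and colour gives the log2 of CPM + 5 over the mean of the sub-clusters, with the scale ending at -2 and 2. Sub-cluster 3 is high for Mylk, Cdkn1c, Notch3 and Casq2 and low for Eln, Mgp and Cxcl12, and sub-cluster 2 is high for Sost and Acan.

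Sub-cluster 4 held the dividing members. Top2a, which untangles DNA at mitosis, was at 490 CPM, against at most 10.7 CPM elsewhere, and 55 of its 58 cells were cycling. Its Acta2, at 16648 CPM, lay inside the range of the other sub-clusters. Sub-cluster 5 carried Saa3 at 508 CPM, Lyz2 at 245 CPM and Msln at 75.9 CPM, against at most 47.0, 33.3 and 4.71 CPM in the other sub-clusters. Its median of 35005 UMIs was 1.84 times that of all members, and Scrublet marked 32 of its 53 cells (60.4%), compared with 7, 0, 0 and 6 cells of sub-clusters 1 to 4. Macrophage markers summed to 359 CPM and mesothelial markers to 251 CPM in it, against at most 37.6 and 35.0 CPM in the other sub-clusters. The part of doublets in this sub-cluster was not tested. Without it, an alternative chosen after seeing the data, 166 genes were higher and 183 lower in members than in other ventral cells, and without sub-cluster 3 the counts were 114 and 118.

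The third comparison set the members against the 418 dorsal cells that met the same rule, 4.68% of 8926 dorsal cells, with a median of 15752 UMIs. Members had more Acta2, more RNA of cell cycle genes and more of Acan, S100a4 and Sost, and less of Des, Mylk, chemokines and immediate early genes. Among 5928 genes, 267 (4.50%) were at least 2-fold higher and 402 (6.78%) at least 2-fold lower in members, 11.3% in all. TMM scaling, which shifted all log2 ratios by 0.16, turned this split to 374 higher and 316 lower. The libraries as a whole also differed. Some leading ratios are therefore given beside the log2 ratio of the other ventral over the other dorsal cells, called the ratio between the other cells. For genes given without it, the part of the difference between whole libraries is not shown.

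The contractile genes went in both directions. Of 23 on the list, Acta2, Tpm1 and Actn1 were at least 2-fold higher and Mylk, Des, Synpo2 and Synm at least 2-fold lower, with Tpm1 at 0.99 without sub-cluster 3, and the median log2 ratio was 0.44 against -0.15 over all measured genes. Acta2 was at 17455 CPM in members and 6919 CPM in dorsal cells under the rule, a log2 ratio of 1.34 (1.32 to 1.35), and the ratio between the other cells was 3.12. Cnn1 was the other way, at 644 CPM in members and 881 CPM in dorsal cells, a log2 ratio of -0.45. Mylk was at 231 CPM in members and 593 CPM in dorsal cells, a log2 ratio of -1.36 (-2.24 without sub-cluster 3), and the ratio between the other cells was -0.27. Des was at 72.4 CPM in members (67.0 to 78.0) and 721 CPM in dorsal cells (703 to 739), with 2 or more UMIs in 14.5% of members and 44.0% of dorsal cells. It also had 2 or more UMIs in 4.54% of ventral cells with fewer than 3 Myh11 UMIs and 11.0% of the other dorsal cells.

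Of 5 tested genes of visceral smooth muscle, Des, Foxf1, Synm and Chrm2 were at least 2-fold lower in members and 0 higher. Chrm2, the muscarinic acetylcholine receptor of visceral and cardiac muscle, had 8 UMIs in members (0.856 CPM) and 848 UMIs in dorsal cells under the rule (96.2 CPM), a log2 ratio of -6.81 (-8.03 to -5.83), whereas the ratio between the other cells was -0.56. Foxf1, a transcription factor of foregut mesenchyme, was at 4.18 CPM in members and 54.8 CPM in dorsal cells. Grem1, a BMP antagonist, had 4 UMIs in members and 2768 in dorsal cells, which makes 0.428 CPM (0.117 to 1.10) in members and 314 CPM (302 to 326) in dorsal cells. The channel genes Kcnj8 and Abcc9 were also lower, with log2 ratios of -3.11 and -2.51. Rgs2, a regulator of G protein signalling, was at -5.84, and the ratio between the other cells was -3.08. Among the 12 lowest were also the macrophage genes Clec4n, Wfdc17 and Ccl6, the skeletal muscle genes Myl1, Tnnt3 and Mylpf, and Sbspon and Sparcl1.

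The higher genes were led by Acan. It was at 125 CPM in members (118 to 132) and 3.86 CPM in dorsal cells under the rule (2.67 to 5.39), a log2 ratio of 5.02 (4.53 to 5.56), and the ratio between the other cells was 4.50. S100a4, a calcium-binding protein of migrating cells, had a log2 ratio of 3.75 in members and 3.69 between the other cells. Sost was at 81.7 CPM in members and 8.96 CPM in dorsal cells, and Crip1, a LIM-domain protein, at 981 CPM in members, or 613 CPM without sub-cluster 3, and 126 CPM in dorsal cells. Tmem37 had a log2 ratio of 3.11 (2.79 to 3.44) in members, which was 1.84 without sub-cluster 3, and 1.70 between the other cells. The network collagen Col8a1 stood at 2.73 in members and 2.63 between the other cells. Ptprz1, Col11a1, Tinagl1, Gdf6 and the mitotic genes Prc1 and Birc5 made up the rest of the 12 highest, at 2.46 to 2.68, with Tinagl1 at 1.79 without sub-cluster 3.

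**Figure D5:**
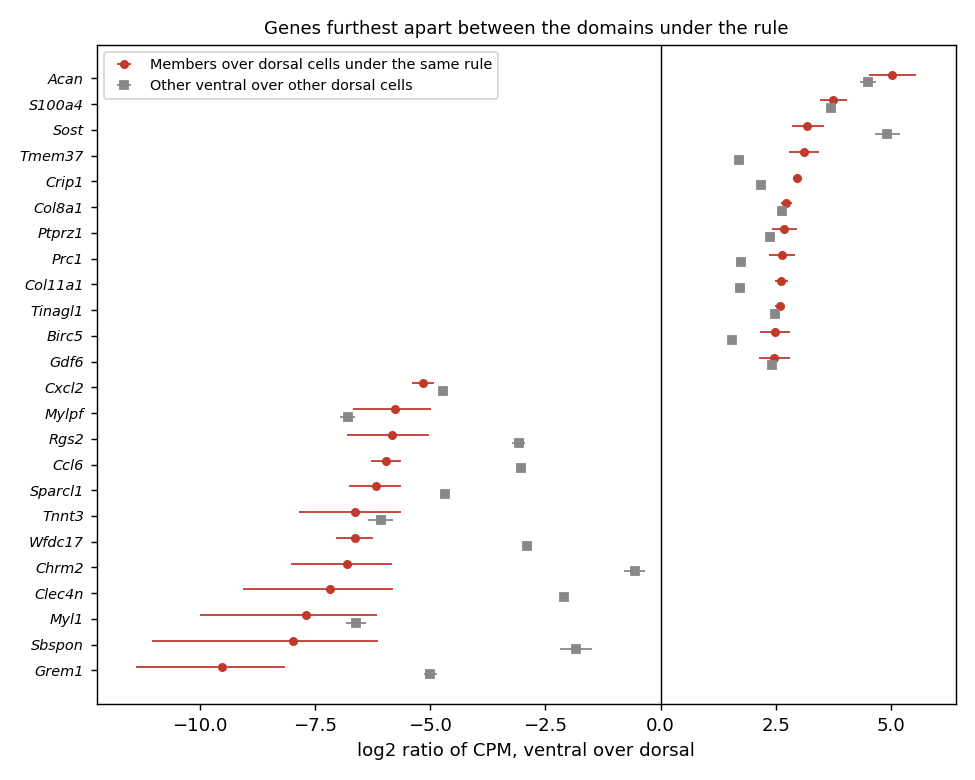
Log2 ratio of CPM, ventral over dorsal, of the 12 highest and 12 lowest genes by the members' ratio. Circles are members over dorsal cells under the same rule, squares are other ventral over other dorsal cells, and bars are 95% intervals. Circle and square lie on the same side of 0 for each of the 24 genes, and the square nearest to 0 is that of Chrm2, at -0.56.

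Signalling genes differed by family. Of 4 tested Notch genes, Notch3 and the target genes Hes1 and Heyl were at least 2-fold higher in members and 0 lower. Notch3 was at 65.3 CPM in members (60.2 to 70.7) and 13.9 CPM in dorsal cells under the rule (11.6 to 16.6), a log2 ratio of 2.23 (1.95 to 2.52) that was 1.49 without sub-cluster 3. Tgfb2 and Tgfb3, with log2 ratios of 1.95 and 2.18 (1.48 for Tgfb3 without sub-cluster 3), and Ankrd1, a target of TGF-beta signalling, were among the higher genes of that pathway, and Tgfbr3 and Tgfbi were lower. Gucy1a3 and Gucy1b3, the subunits of the nitric oxide receptor guanylate cyclase, had log2 ratios of 1.85 and 1.83, against 1.20 and 2.01 between the other cells. Of 6 tested cardiac and outflow factors, Bmp4, Hand2 and Tbx20 were higher in members and Sema3c was lower. P2rx1, an ATP-gated channel of arterial smooth muscle that stayed below the minimum of 20 CPM and was picked after its values were seen, had 107 UMIs in members and 0 in dorsal cells under the rule, a log2 ratio of at least 5.07 against a limit of 3 counts over the dorsal set.

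Of 15 cell cycle genes, 13 were at least 2-fold higher in members and 0 lower, with a median log2 ratio of 2.27. Cycling cells made up 20.1% of members (83 cells) and 4.07% of dorsal cells under the rule (17 cells), and 14.4% of ventral cells with fewer than 3 Myh11 UMIs and 6.45% of the other dorsal cells. After thinning, the shares were 15.7% of members and 2.15% of dorsal cells under the rule. Without cycling cells on either side the list's median was 0.17, and the ratio of Prc1, 1 of the 6 genes by which cycling cells were called, turned to -0.50.

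Of 15 tested chemokine and cytokine genes, 12 were at least 2-fold lower in members and Ccl17 was higher. Cxcl2 was at 16.4 CPM in members and 581 CPM in dorsal cells under the rule, and Ccl2 at 442 CPM in members and 2259 CPM in dorsal cells. Of 14 immediate early genes, 10 were lower, with Egr1 at 154 CPM in members and 551 CPM in dorsal cells, a log2 ratio of -1.84, and the ratio between the other cells was -1.46. The dorsal cells under the rule also held more RNA of the macrophage and skeletal muscle lists. The 10 macrophage markers summed to 95.3 CPM in members and 1095 CPM in dorsal cells. The 10 skeletal muscle markers summed to 83.8 CPM in members and 1049 CPM in dorsal cells, with Myod1, Myog and Tnni2 at 0 UMIs in members. Most of both skeletal muscle sums was Des, at 72.4 CPM in members and 721 CPM in dorsal cells, which is also a smooth muscle gene. All 6 tested genes of that list, Des among them, were at least 2-fold lower in members. Scrublet marked 10.9% of members and 17.2% of dorsal cells under the rule. Its thresholds were set in unlike ways in the libraries, marking 5.11% of all ventral and 7.14% of all dorsal cells, so these shares are not a like comparison. The part of other cell types and of doublets in the ratios was not tested.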

How the data were processed

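Single-cell RNA sequencing of 1 ventral and 1 dorsal library gave UMI counts per gene and barcode. The authors made these counts with Cell Ranger 3.0.2 on mm10, per the submitters' processing notes, and deposited them raw as unfiltered matrices of 28692 genes. The annotation release was not given in the sources used here. From the deposited counts, cells were kept at 8000 UMIs or more and at most 20% mitochondrial UMIs, and counts were summed over cells into CPM.

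Ratios of CPM carry exact conditional binomial 95% intervals, levels exact Poisson intervals and shares Clopper-Pearson intervals. With 1 library per domain there are no replicates, and all of these cover counting error only. The ratio step was tested on simulated data. A gene was tested at 20 CPM or more on either side and called at 2-fold. List medians use genes with at least 50 UMIs in both groups together. The text names the 20 highest and 12 lowest ratios against other ventral cells and the 12 highest and 12 lowest in the other comparisons, at 50 CPM or more on either side. It leaves out rule, ribosomal, mitochondrial, provisional, Xist and Y-linked names. It further names list genes and the 10 genes most correlated with Acta2. The members, the 26 gene lists and the tests were chosen with earlier results of these data known.

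Members were clustered with scanpy 1.11.5 (Leiden resolution 0.5, 1000 variable genes, 20 components, 15 neighbours). Doublets were scored with Scrublet and kept. Its automatic threshold marked 0 dorsal cells, so the top-scoring cells there were marked up to the share expected from the number of cells. Alternatives changed the limits of the rule, depth, doublets, weights, scaling (TMM of edgeR 4.0.16), the CPM minimum and cycling cells. Promoter windows came from RefSeq, GRCm38.p6.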

Additional observations from a re-analysis of the deposited data

Results flagged for a closer look

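Some barcodes outside the main measurement also met the rest of the rule. Of 699 ventral barcodes with at least 1000 but fewer than 8000 UMIs, 10 met the rest of the rule, above the 3 that a count of 0 allows. Together these barcodes had 16463 CPM of Acta2 and 856 CPM of Myh11. They were chosen by Myh11, so their Myh11 level is a description. Their median was 7509.5 UMIs, just under the minimum of 8000. In the dorsal library 62 of 890 barcodes in the same UMI range met the rest of the rule. With a minimum of 4000 UMIs per cell, 420 members were found in place of 413.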

How the results depend on the processing

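Limits of the rule and of the CPM minimum moved the counts most, while 79 recomputed gene counts stayed within 1.5 times and 19 did not. Members numbered 980 with at least 1 Myh11 UMI, 126 with at least 10, and 214 after thinning every cell to 8000 UMIs. Against other ventral cells, the genes at least 2-fold higher and lower numbered 38 and 24 with at least 1 Myh11 UMI, 195 and 242 after thinning, 3344 and 1310 with no CPM minimum, and 78 and 55 at 50 CPM. With at least 10 Myh11 UMIs 189 were higher. Against Igfbp2-high cells they numbered 1398 and 616 with no minimum and 78 and 30 at 50 CPM. Lower genes there numbered 122 with at least 1 Myh11 UMI and 37 with an Igfbp2 limit of 40. Against dorsal cells they numbered 1006 and 2547 with no minimum and 166 and 187 at 50 CPM. Without a minimum, genes of few UMIs enter.

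Of the recomputed list medians, 1017 moved little, 91 moved more and 5 changed sign from a reported size of at least 1. Sign changes of medians reported at less than 1 in size were not counted apart. Of the recomputed ratios of 80 named genes, 672 moved little, 478 moved beyond their counting interval and 1 changed sign. The cardiomyocyte median against Igfbp2-high cells was -2.74 with an Igfbp2 limit of 10, and the skeletal muscle median was -0.64 without Scrublet-marked barcodes. The mesothelial median against dorsal cells was -0.67 with at least 10 Myh11 UMIs, -1.57 after thinning and -1.64 without sub-cluster 5, compared with 1.43. The ratio of Prc1 against dorsal cells was -0.50 without cycling cells. The 3 medians rested on 4, 3 and 7 measured genes as reported, and the cause was not tested. The contractile medians kept their sign under each alternative run. The reference of cells with fewer than 3 Myh11 UMIs and the leaving out of sub-clusters 3 and 5 were chosen after seeing the data. No paired analysis was possible because there is 1 library per domain. 1 UMI was 0.107 CPM in members, so genes near 0.321 CPM (3 UMIs) cannot be ranked.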
